A study of Mus musculus with 6 samples.

Results

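The 10 immediate-early genes described here were measured in dermal fibroblasts of normal and dysplastic mouse skin. They are the Egr zinc finger genes Egr1, Egr2 and Egr3, the Nr4a nuclear receptor genes Nr4a1, Nr4a2 and Nr4a3, the antiproliferative gene Btg2, and the immediate-early response genes Ier2, Ier3 and Ier5. All 10 listed genes were measured, out of 18193 genes on the arrays, by the rule that a probe set must name 1 of them and no other gene, which 22 probe sets did. A probe set is the group of short array probes that reads 1 stretch of a transcript. The study compared 3 arrays of cancer-associated fibroblasts (CAF) with 3 arrays of normal dermal fibroblasts (NDF), all from ears of male mice 4 months old. The CAF group was taken from K14-HPV16 mice, whose strain the labels give as HPV16, with visible dysplasia of the ear. In these mice the human papillomavirus genes are driven by the keratin 14 promoter and so are expressed in basal keratinocytes and not in the fibroblasts themselves. The NDF group was taken from normal ears of FVB/n mice without the transgene. In both groups cells were sorted for PDGFRα, a receptor on fibroblasts, after the ears of 15 mice per genotype had been made into single cell suspensions. The labels call the arrays biological repetitions but do not say whether each stands for its own pool of mice. Every p value therefore reflects only how much 3 samples a group vary, which may be technical.

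Immediate-early genes are transcribed within minutes of a stimulus, without new protein synthesis, because their promoters are held ready for the serum response factor, CREB and NF-κB. Egr proteins bind GC-rich DNA through zinc fingers and pass a short signal on to later genes, and Nr4a proteins are nuclear receptors that act without a known physiological ligand and are governed by their own abundance. In skin fibroblasts these genes respond to serum, growth factors, cytokines, wounding and stretch. Activated lymphocytes and macrophages express them as well.

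CAF replicate 3 stood apart from the other arrays, with correlations over all probe sets of 0.913 to 0.932 against 0.960 to 0.983 among the other 5. It held the highest CAF value for 9 of the 10 members, as it did for 48.7% of all genes, and the lowest for Ier5.

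Of the 10 genes, 5 rose in CAF at a limma adjusted p under 0.05 over all genes: Egr2, Nr4a1, Nr4a3, Btg2 and Ier3. None was lower at that threshold. The number that rose was 0 when any 1 NDF array was left out, and 3, 1 and 5 without CAF replicate 1, 2 and 3. All genes past the threshold in either direction fell from 94 to 11, 8 and 5 without NDF replicate 1, 2 and 3. Without CAF replicate 1, 2 and 3 they numbered 102, 40 and 156. For 9 of the 10, all but Ier5, every CAF array lay above every NDF array. The background over all genes was 0.489% higher at that adjusted p and 6.78% with every CAF array above every NDF array, and at an unadjusted p under 0.05 it was 4.93% higher, against 9 of the 10 members. The median difference of the members was 1.80 log2 units, beside -0.04 for all genes tested. The 10 genes were listed with earlier results of these arrays known, so the counts are a description and not an independent test.

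**Figure D1:**
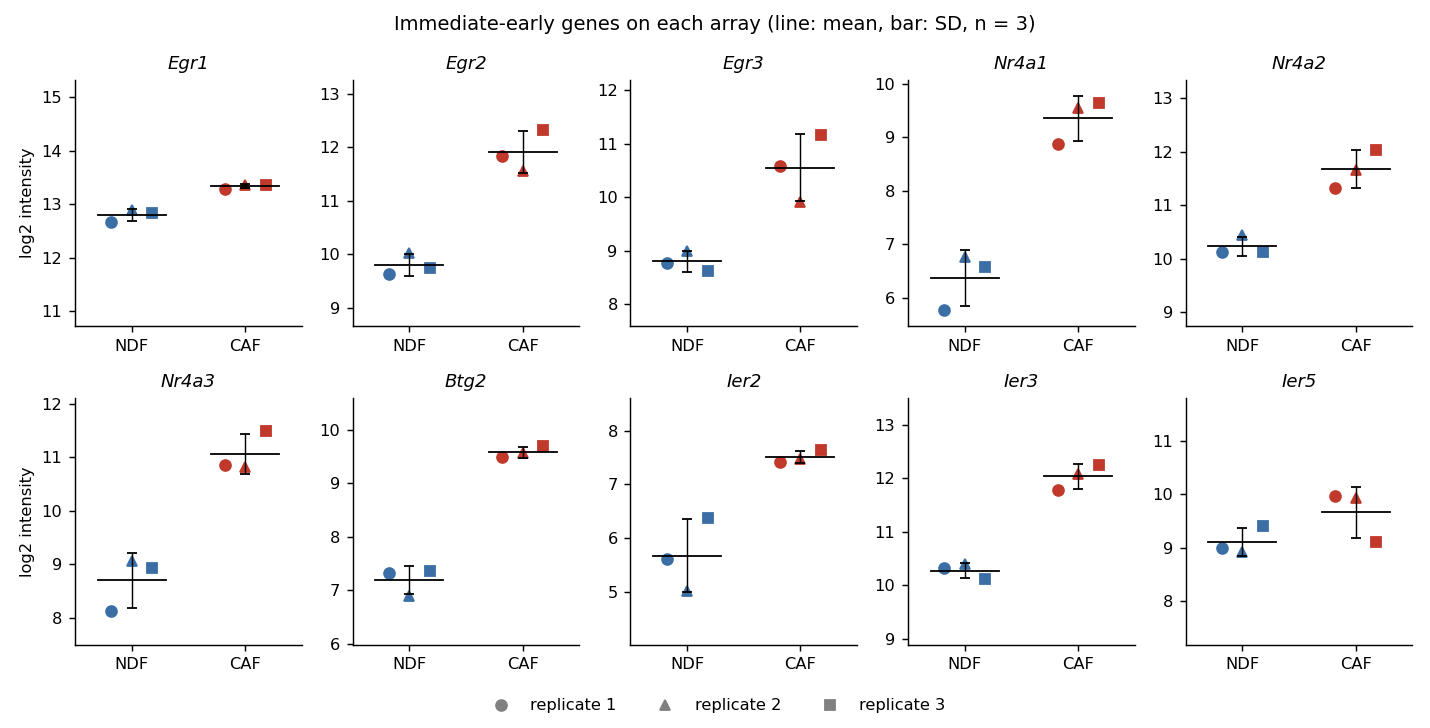
Log2 intensity of the brightest probe set of each of the 10 genes on the 3 NDF (blue) and 3 CAF (red) arrays, with the mean as a line and the SD as a bar; every panel spans the same number of log2 units. The CAF arrays lie above all NDF arrays in every panel except that of Ier5, where CAF replicate 3 at 9.11 falls below NDF replicate 3 at 9.40.

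Many markers of cells other than fibroblasts were also higher in CAF. Every CAF array was above every NDF array for 8 of 10 measured neutrophil markers, 14 of 16 of macrophages and dendritic cells, 11 of 13 of keratinocytes, 9 of 12 of endothelium, 4 of 7 of T cells and 3 of 8 of mast cells. This held for 6.78% of all genes. The log2 of the summed neutrophil intensity was 7.42 to 9.54 in NDF and 13.03 to 14.20 in CAF, that of macrophages and dendritic cells 9.45 to 10.22 and 11.66 to 13.17, and that of keratinocytes 11.50 to 11.65 and 12.69 to 13.90. For endothelium it was 10.20 to 10.66 and 10.67 to 12.06, for T cells 7.41 to 7.87 and 8.07 to 9.62, and for mast cells 7.32 to 7.86 and 7.56 to 10.28. CAF replicate 3 had the highest CAF sum for macrophages and dendritic cells and for T cells. It had the lowest for endothelium and mast cells, and lay between for neutrophils and keratinocytes. The endothelial sum is weighted to its brightest marker, Tek. That gene read 9.19, 9.48 and 10.13 in NDF and 10.51, 10.58 and 6.99 in CAF. The low endothelial sum of CAF replicate 3 therefore follows Tek and is not a reading of all 12 markers. Log2 intensities have a floor rather than a 0, and 7 of 10 neutrophil and 7 of 16 macrophage and dendritic cell markers had an NDF mean under the median probe set. So did 5 of 7 T cell, 5 of 8 mast cell, 4 of 12 endothelial and 3 of 13 keratinocyte markers. The 12 fibroblast markers summed to 16.22 to 16.33 in NDF and 16.04 to 16.30 in CAF, and the sort marker Pdgfra was at 12.46 ± 0.15 and 12.54 ± 0.11 (SD, n = 3). Of the 12, 1 had every CAF array above every NDF array and 2 had every CAF array below, beside 6.78% and 8.66% of all genes. In such bulk samples more cells of a type and more RNA per cell cannot be told apart, and the part of these cells in the members' differences was not tested.

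Among the Egr transcription factors, Egr2, known for its role in myelination and in restraining T cells, rose. Its log2 intensity on probe set 1427682_a_at was 9.63, 10.03 and 9.74 on the NDF arrays and 11.84, 11.55 and 12.33 on the CAF arrays. The lowest CAF array was thus 1.52 above the highest NDF array, and the difference of the means was 2.11 ± 0.25 (SE), a 4.30-fold change (adjusted p = 0.0280). The other Egr2 probe set, 1427683_at, gave nearly the same, with 8.96, 9.55 and 9.23 in NDF and 11.35, 11.25 and 11.91 in CAF. Its difference was 2.26 ± 0.26, with an adjusted p of 0.0476 over all probe sets. The gene's own call was lost without CAF replicate 1 or 2 (adjusted p = 0.0679 and 0.0520).

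Egr1, the best known serum-induced zinc finger gene, was among the brightest signals on the arrays in both groups. Its values on probe set 1417065_at were 12.67, 12.88 and 12.83 in NDF and 13.29, 13.35 and 13.36 in CAF. The groups did not overlap, but the difference of 0.54 (95% interval 0.15 to 0.93) missed the threshold (adjusted p = 0.346). Its mean exceeded that of 99.9% of all probe sets. Its CAF arrays lay close together, with an SD of 0.04.

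Egr3, a relative of Egr2 that is induced in muscle spindles and lymphocytes, read on probe set 1436329_at 8.77, 8.999 and 8.62 in NDF and 10.58, 9.90 and 11.16 in CAF. The groups were apart by 0.90, yet the CAF arrays were spread, at 10.55 ± 0.63 (SD, n = 3), and the difference of 1.75 ± 0.33 missed the threshold (adjusted p = 0.107). A dimmer Egr3 probe set showed no such gap, at 5.58, 5.72 and 5.91 in NDF against 5.54, 5.20 and 5.69 in CAF. Averaged with it, the difference of Egr3 was 0.74 (adjusted p = 0.375).

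Nr4a1, which encodes Nur77, had the largest difference of the 10 genes. On probe set 1416505_at it read 5.77, 6.76 and 6.57 in NDF and 8.86, 9.55 and 9.64 in CAF. NDF replicate 1 was the low array of its group, and the lowest CAF array still lay 2.11 above the highest NDF array. The gene rose by 2.99 ± 0.34, or 7.92-fold (adjusted p = 0.0252). Nr4a1 has 1 probe set here, so no other reading of the transcript was at hand. Its adjusted p was 0.0849 without CAF replicate 2.

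Nr4a3, which encodes Nor1, rose on its brightest probe set, 1438796_at, from 8.12, 9.06 and 8.93 in NDF to 10.85, 10.82 and 11.48 in CAF. The difference was 2.35 ± 0.32, or 5.10-fold (adjusted p = 0.0414). On its other probe sets the groups overlapped, with differences of -0.06 and 0.14 at NDF means of 3.91 and 2.88, below the median probe set mean of 4.84. With the mean of all its probe sets the difference was 0.81 and the call was lost (adjusted p = 0.354), as it was without CAF replicate 1 or 2 (adjusted p = 0.0867 and 0.0962).

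Nr4a2, which encodes Nurr1, a factor needed by dopamine neurons, was read by 6 probe sets. The brightest, 1455034_at, gave 10.13, 10.44 and 10.12 in NDF and 11.32, 11.66 and 12.04 in CAF, a difference of 1.44 ± 0.24 that missed the threshold (adjusted p = 0.0712). The 3 next in brightness also had every CAF array above every NDF array, with differences of 2.72, 2.59 and 1.55. The first of them went from 7.05, 7.68 and 7.52 to 9.48, 10.39 and 10.53 and carries the suffix for probes that several transcripts can share. The remaining 2, at NDF means of 5.04 and 4.80, differed by -0.14 and 0.01. With the mean of all 6 probe sets Nr4a2 differed by 1.36 and passed the threshold (adjusted p = 0.0403).

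**Figure D2:**
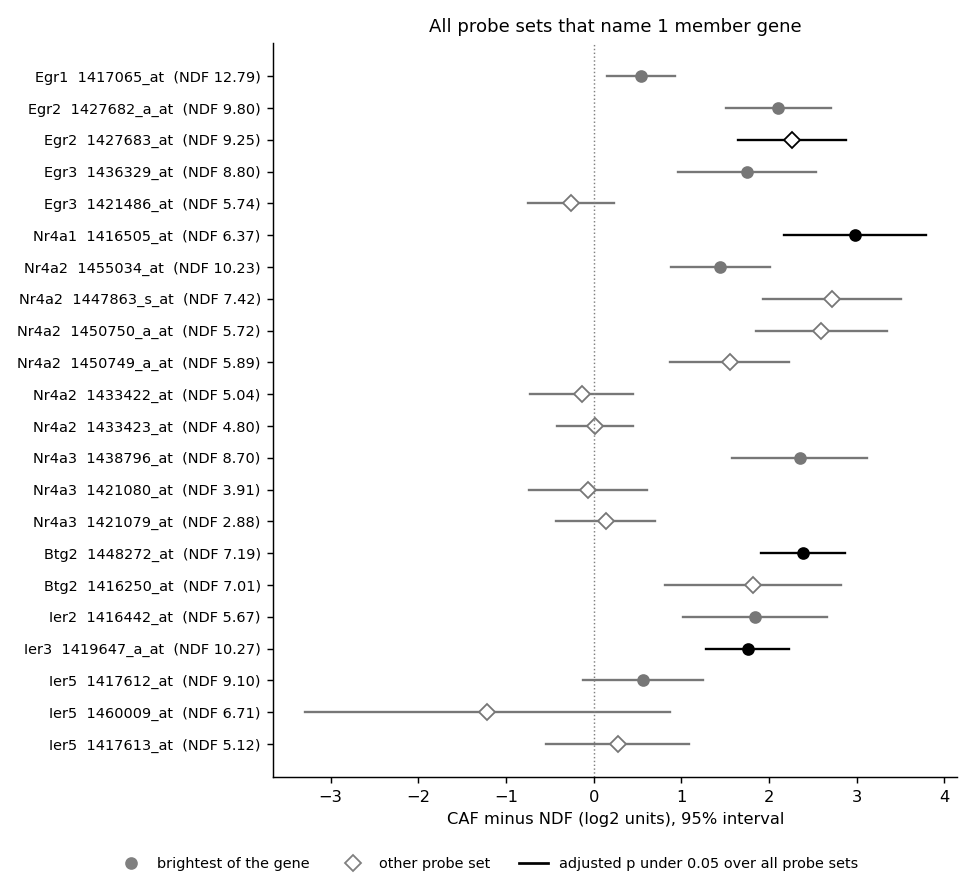
Difference between CAF and NDF in log2 units with its 95% interval for all 22 probe sets, with the NDF mean beside each name; filled circles are the brightest probe set of a gene, open diamonds the others, and black marks an adjusted p under 0.05 over all probe sets. Differences run from -1.22 for an Ier5 probe set to 2.99 for Nr4a1, and Egr3, Nr4a2, Nr4a3 and Ier5 each have probe sets on which the groups overlap.

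Btg2, which slows the cell cycle and recruits the CCR4-NOT deadenylase to messenger RNA, had the smallest adjusted p of the 10 genes. On probe set 1448272_at it read 7.32, 6.89 and 7.36 in NDF and 9.48, 9.57 and 9.69 in CAF, with the CAF arrays within an SD of 0.10. The lowest CAF array was 2.12 above the highest NDF array. Btg2 rose by 2.39 ± 0.20, or 5.24-fold (adjusted p = 0.00998). Its other probe set gave 6.27, 7.54 and 7.21 in NDF and 8.30, 8.74 and 9.43 in CAF, apart as well but with more spread, and its difference of 1.82 ± 0.42 had an adjusted p of 0.276 over all probe sets. Leaving out any 1 CAF array kept the gene past the threshold, with a highest adjusted p of 0.0365, and leaving out any 1 NDF array did not, with adjusted p from 0.0565 to 0.0674.

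Ier3, a stress-induced gene that modulates cell survival and NF-κB signalling, was bright in both groups. On probe set 1419647_a_at it read 10.32, 10.39 and 10.11 in NDF and 11.78, 12.07 and 12.25 in CAF. The groups were 1.38 apart, and Ier3 rose by 1.76 ± 0.20, or 3.38-fold (adjusted p = 0.0252). Without CAF replicate 2 its adjusted p was 0.0849, and without both CAF replicate 3 and NDF replicate 1 it was 0.0509.

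Ier2, a nuclear early response protein gene, read on probe set 1416442_at 5.61, 5.01 and 6.38 in NDF and 7.41, 7.48 and 7.64 in CAF. The CAF arrays were tight, at an SD of 0.12, whereas NDF varied by an SD of 0.68, and the difference of 1.84 ± 0.34 missed the threshold (adjusted p = 0.104). Ier5, which acts on heat shock factor 1 and protein phosphatase 2A, was the member whose groups overlapped. On probe set 1417612_at it read 8.99, 8.91 and 9.40 in NDF and 9.96, 9.92 and 9.11 in CAF, a difference of 0.56 (95% interval -0.12 to 1.25, adjusted p = 0.665). CAF replicate 3 was the low CAF array here, and without it the groups were apart with a difference of 0.84 (adjusted p = 0.155). Its 2 dimmer probe sets differed by -1.22 and 0.27, the first with CAF replicate 3 at 3.47 against 6.75 and 6.25 on the other CAF arrays. With the mean of all 3 probe sets the difference of Ier5 was -0.13 (adjusted p = 0.971).

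Ordered by difference, the genes ran from Nr4a1 at 2.99 through Btg2 at 2.39, Nr4a3 at 2.35, Egr2 at 2.11, Ier2 at 1.84, Ier3 at 1.76, Egr3 at 1.75 and Nr4a2 at 1.44 to Ier5 at 0.56 and Egr1 at 0.54. The 95% intervals of all neighbours in this order overlapped. The interval of Egr1, which ended at 0.93, lay below those of Nr4a1, Btg2, Nr4a3, Egr2, Ier2, Ier3 and Egr3, the lowest of which began at 0.96. Differences between genes were not tested, and each probe set has its own response to its transcript.

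Over the 22 probe sets, 14 had every CAF array above every NDF array, beside 5.69% of all probe sets. Their differences ran from 0.54 to 2.99. Of the 22, 4, those of Nr4a1 and Ier3 and 1 each of Egr2 and Btg2, passed an adjusted p of 0.05 over all probe sets, beside 0.144% of all probe sets. On 8 of the 22 the groups overlapped, 4 of them with a positive and 4 with a negative difference.

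Promoter sequence from RefSeq on the GRCm38.p6 build was matched for 7 of the 10 genes: Egr2, Nr4a1, Nr4a2, Nr4a3, Btg2, Ier3 and Ier5. The windows below hold the 250 bases before a start site, and they are shown for the 3 Nr4a genes, of which Nr4a2 missed the threshold, and for Egr2, Btg2 and Ier3, which rose. They were searched on both strands for 8 motifs, and capitals mark every match. The motifs were TGACG, the core of the cyclic AMP response element that CREB binds, its palindrome TGACGTCA (which holds TGACG on both strands), the CArG box of serum response factor, the NF-κB site, the AP-1 site TGANTCA, the Nr4a site AAAGGTCA, the Egr site GCGTGGGCG and TATAA. Positions are counted back from the base before the start site, at -1.
Nr4a1, chr15:101266596-101266845, plus strand: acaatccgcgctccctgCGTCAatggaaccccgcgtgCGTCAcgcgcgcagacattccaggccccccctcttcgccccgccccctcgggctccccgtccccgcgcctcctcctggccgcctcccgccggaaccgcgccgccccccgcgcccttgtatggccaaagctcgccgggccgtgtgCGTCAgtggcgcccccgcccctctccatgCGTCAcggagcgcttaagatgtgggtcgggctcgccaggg
Nr4a2, chr2:57124004-57124253, minus strand: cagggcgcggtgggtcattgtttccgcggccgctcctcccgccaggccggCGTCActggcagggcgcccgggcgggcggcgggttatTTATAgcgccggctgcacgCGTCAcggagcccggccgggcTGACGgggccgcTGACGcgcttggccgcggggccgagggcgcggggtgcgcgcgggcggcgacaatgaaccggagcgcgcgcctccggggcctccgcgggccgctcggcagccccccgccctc
Nr4a3, chr4:48045055-48045304, plus strand: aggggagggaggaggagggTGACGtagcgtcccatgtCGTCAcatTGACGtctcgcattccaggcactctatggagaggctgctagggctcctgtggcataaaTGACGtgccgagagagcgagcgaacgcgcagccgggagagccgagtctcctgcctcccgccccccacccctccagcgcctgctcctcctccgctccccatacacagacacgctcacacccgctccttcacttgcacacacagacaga
Egr2, chr10:67537619-67537868, plus strand: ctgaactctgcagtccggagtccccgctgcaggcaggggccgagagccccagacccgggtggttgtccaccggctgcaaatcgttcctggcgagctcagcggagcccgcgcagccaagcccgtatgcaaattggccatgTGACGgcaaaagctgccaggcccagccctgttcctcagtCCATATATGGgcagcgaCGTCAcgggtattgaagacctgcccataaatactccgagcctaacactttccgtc
Btg2, chr1:134079156-134079405, minus strand: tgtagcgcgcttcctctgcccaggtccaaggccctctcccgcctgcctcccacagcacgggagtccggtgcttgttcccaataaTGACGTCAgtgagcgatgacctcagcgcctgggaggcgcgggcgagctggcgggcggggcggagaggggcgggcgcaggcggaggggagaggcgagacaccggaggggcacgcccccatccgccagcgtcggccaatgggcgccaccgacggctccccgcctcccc
Ier3, chr17:35821463-35821712, plus strand: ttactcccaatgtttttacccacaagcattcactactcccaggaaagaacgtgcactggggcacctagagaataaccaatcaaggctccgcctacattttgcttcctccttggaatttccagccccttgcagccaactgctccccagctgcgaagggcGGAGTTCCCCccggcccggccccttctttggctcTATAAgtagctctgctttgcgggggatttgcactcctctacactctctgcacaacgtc

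Each of the 3 Nr4a windows held TGACG 4 times, counting both strands. A window with 4 or more was present for 0.163% of the 27025 genes of the promoter table, and 1 or more for 19.8%; the minimum of 4 was set after the matches were seen. The Nr4a1 matches lay at -233, -213, -69 and -40, those of Nr4a2 between -200 and -107, and those of Nr4a3 between -231 and -143. The Btg2 window held the palindrome TGACGTCA at -166 to -159, as did a window of 1.77% of genes. Base composition was not matched, and GC content was 74.4% for Nr4a1, 80% for Nr4a2, 63.6% for Nr4a3 and 73.2% for Btg2.

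Egr2 has 5 start sites in the table, some with overlapping windows. The one printed held a CArG box, CCATATATGG, at -72 to -63, with TGACG on either side at -111 and, on the other strand, at -55. A window farther upstream held another, CCTTTTTTGG. A CArG box was present for 1.62% of genes. Ier3 held an NF-κB match, read as GGAGTTCCCC on the plus strand at -92 to -83, and TATAA at -58. The NF-κB site was present for 6.73% of genes, among them a farther start site of Egr2, and TATAA for 25.8%. Ier5, which did not pass the test, held TATAA at -26 and no other match. The AP-1, Nr4a and Egr sites, present for 7.82%, 1.55% and 0.622% of genes, had no match in the windows of these 7 genes. A match is a string of letters in a window and was not tested as a binding site.

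The genes known to switch immediate-early genes on, or to work beside them, did not pass the test on their brightest probe sets, by which all counts of related genes were made. Of 15 measured genes of serum response factor, CREB, their cofactors and the kinases above them none passed the adjusted threshold by limma in either direction, none did at an unadjusted p under 0.05, and their median difference was -0.05. The largest departures by p were Mrtfa, a serum response factor coactivator, at -0.57 (adjusted p = 0.596), Creb1 at -0.45 (adjusted p = 0.710) and the CREB coactivator Crtc3 at 0.77 (adjusted p = 0.798). The probe sets of Creb1 disagreed in sign. A dimmer one differed by 1.14, with a CAF SD of 1.54 (limma adjusted p = 0.896 over all probe sets), and the others by -0.29 to 0.06. Of 7 Egr relatives, cofactors and competitors none passed by either measure. Nab2, a corepressor that Egr proteins induce, read 6.34, 6.81 and 6.58 in NDF and 6.46, 6.30 and 6.37 in CAF, a difference of -0.20 (adjusted p = 0.864), beside -0.12 for its relative Nab1 and -0.43 for Sp1.

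Known Egr target genes and partners of Nr4a receptors did not pass the test either. Of 10 measured Egr targets none passed the adjusted threshold by limma, and on the brightest probe sets Icam1 alone had an unadjusted p under 0.05. The list median was 0.16, and 3 had every CAF array above every NDF array, beside 6.78% of all genes. The 3 were the adhesion molecule gene Icam1 at 0.61 (adjusted p = 0.430), the hyaluronan receptor gene Cd44 at 0.45 (adjusted p = 0.575) and Tgfb1 at 0.48 (adjusted p = 0.617). The probe sets of Cd44 disagreed in size: a dimmer one differed by 1.68 (unadjusted p under 0.05, limma adjusted p = 0.166 over all probe sets), and the other 2 by 0.72 and 0.08. Of 9 nuclear receptor genes that pair with Nr4a proteins or resemble them none passed, and 1 was lower at an unadjusted p under 0.05, beside 4.02% of all genes. It was the clock receptor Nr1d1, at 7.78, 8.21 and 8.04 in NDF and 7.60, 7.27 and 6.60 in CAF (adjusted p = 0.427). The retinoid X receptors Rxrb and Rxra differed by 0.54 and -0.31 (adjusted p = 0.744 and 0.765).

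Relatives of Btg2 and of the Ier genes did not pass either. Of 10 BTG, TOB and CCR4-NOT genes none passed by limma, and on the brightest probe sets none did at an unadjusted p under 0.05. Btg1, the closest relative of Btg2, was already at 12.09 ± 0.04 in NDF and at 12.53 ± 0.23 in CAF (SD, n = 3; adjusted p = 0.563), and the deadenylase Cnot8 and the oocyte gene Btg4 differed by -0.29 and -0.15. A dimmer Btg1 probe set was at 7.68 ± 0.45 in NDF and 9.50 ± 0.79 in CAF (SD, n = 3), a difference of 1.83 (unadjusted p under 0.05, limma adjusted p = 0.295 over all probe sets), and another differed by 0.37. Of 6 genes tied to Ier proteins none passed, and Ier3ip1, a secretory pathway gene named for binding Ier3, was lower at an unadjusted p under 0.05, at -0.46 (adjusted p = 0.453). Its groups did not overlap, which held in this direction for 8.66% of all genes. Ppp2r5c, a phosphatase subunit, and Ier5l differed by -0.53 and -0.42. The groups of Ppp2r5c did not overlap either. Its dimmer probe sets disagreed in sign, with differences from -1.67 to 0.13, and a dimmer one of Ier5l differed by -0.007.

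Most other early response genes had positive differences, as the members did: 6 of 8 AP-1 genes and 29 of 31 further genes. The median difference of all genes was -0.04. Of 8 AP-1 genes 1 rose and none was lower (0.0275% of all genes were). Fosb read 7.07, 7.23 and 7.27 in NDF and 8.83, 8.82 and 8.73 in CAF, a difference of 1.60 ± 0.16 (adjusted p = 0.0189). The number of AP-1 genes past the threshold was 0 without any 1 of the NDF arrays and 0 without CAF replicate 2, against 1 without CAF replicate 1 and 2 without CAF replicate 3. In 6 of the 8 AP-1 genes every CAF array lay above every NDF array, beside 6.78% of all genes. The AP-1 list median was 0.90. Among the 6 were Atf3 at 1.71 (adjusted p = 0.0802), Junb at 1.55 (adjusted p = 0.107) and Fos at 0.82 (adjusted p = 0.154). Of 31 other early response genes none passed the adjusted threshold by limma. At an unadjusted p under 0.05, 12 had a positive difference and 0 a negative one, beside 4.93% and 4.02% of all genes. In 13 of the 31 every CAF array lay above every NDF array. The median of the 31 was 0.54. The nuclear factor Csrnp1 came closest, at 6.86, 6.95 and 7.09 in NDF and 8.49, 8.92 and 9.61 in CAF (adjusted p = 0.0505), followed by the matrix protein gene Ccn1 at 0.99 (adjusted p = 0.0705) and the repressor gene Nfil3 at 1.61 (adjusted p = 0.0923). The value of Ccn1 is that of its brightest probe set and the smallest of 4. A dimmer one, at 7.45 ± 0.32 in NDF and 9.70 ± 0.13 in CAF (SD, n = 3), rose by 2.26 (adjusted p = 0.0385 over all probe sets), and the other 2 differed by 1.70 and 1.48. Early response genes are also known to be induced when tissue is dissociated for sorting, a step that both groups went through and whose part in these differences was not tested.

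**Figure D3:**
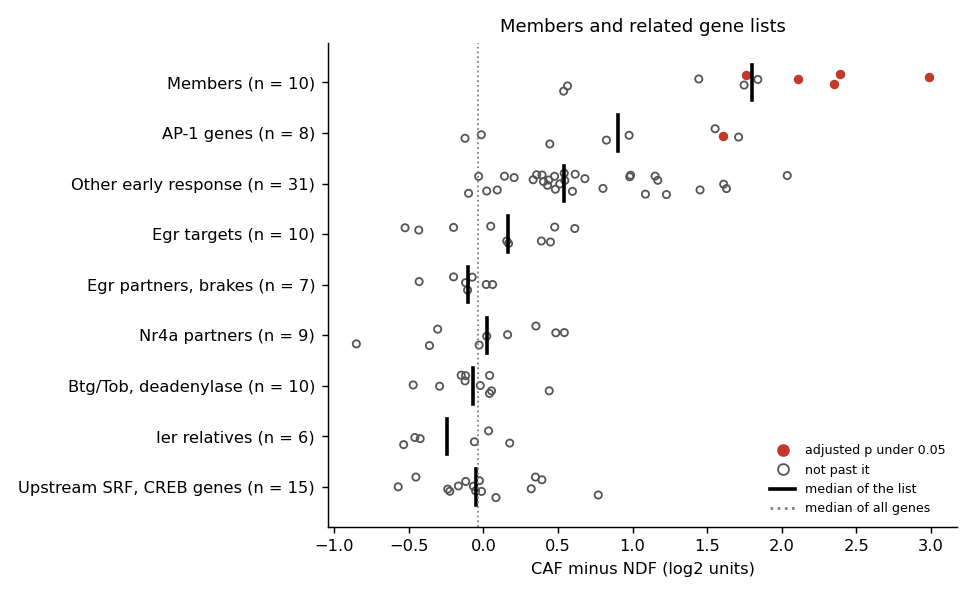
Difference between CAF and NDF in log2 units for the 10 members and the measured genes of 8 related lists, 1 point a gene on its brightest probe set; bars are list medians, the dotted line is the median of all genes and red marks an adjusted p under 0.05. The medians are 1.80 for the members, 0.90 for AP-1 genes and 0.54 for other early response genes, and lie between -0.24 and 0.16 for the other 6 lists.

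The 5 genes outside the list whose values, centred on the NDF mean, lay closest to the members' mean over the 6 arrays were Fosb, Pde4b, Upp1, Il2ra and Mmp3. Pde4b degrades cyclic AMP, Upp1 salvages uridine, Il2ra is an interleukin 2 receptor chain and Mmp3 is stromelysin. Their root mean square distances ran from 0.18 for Fosb to 0.24 for Mmp3, on the log2 scale. Their own differences ran from 1.48 for Il2ra to 1.87 for Mmp3. The members' own mean was 1.64, 1.70 and 1.98 above NDF on the CAF arrays.

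How far these calls rest on single arrays was read by leaving each out. Without CAF replicate 3, the array that stood apart, 5 members passed the test and all 10 had every CAF array above every NDF array, with a median difference of 1.71. All genes past the test then numbered 156, against 94 with every array. Separation of the groups is easier to reach with fewer arrays, and its share over all genes was not counted in this setting. Btg2, Nr4a1 and Ier3 passed without CAF replicate 1, and Btg2 without CAF replicate 2. All 10 differences stayed positive on the brightest probe set when any 1 array was left out.

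**Figure D4:**
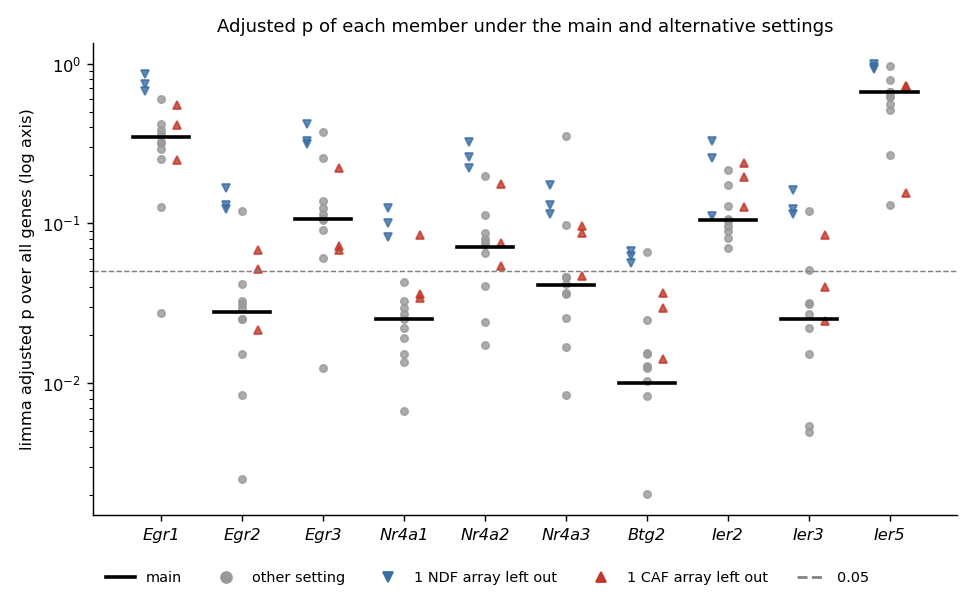
Adjusted p over all genes for each member on a log axis, with the main value as a bar, values with 1 NDF array left out as blue triangles, with 1 CAF array left out as red triangles and under other settings in grey; the dashed line is 0.05. With an NDF array left out no member lies under the line, and Btg2 comes nearest, at 0.0565 to 0.0674.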

How the data were processed

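Per the labels' protocols, RNA of the sorted cells went through 1 round of WT-Ovation amplification, was labelled with biotin and was hybridised to Affymetrix mouse arrays. The deposited values are log2 intensities, made with GCOS and RMA per the submitters' processing notes, with versions not given in the sources used here. RMA corrects background, quantile normalises and summarises probes, which loses total intensity per array and compresses dim values, so a fold of a dim gene is understated.

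Of 45101 probe sets 64 were controls, 34945 named 1 gene by the platform annotation and 10092 had no single name. The probe set with the highest mean stood for each of 18193 genes, and no probe set was filtered out. The contrast of CAF minus NDF was fitted in limma 3.58.1 and R 4.3.3 (lmFit and eBayes, two-sided), over all genes and, separately, over all 45037 probe sets, with Benjamini-Hochberg adjustment and a threshold of 0.05. Standard errors and 95% intervals are the moderated ones. The procedure was also run on simulated data with independent normal noise for each gene. No simulated array was made to stand apart, so that run does not bear on how calls depend on single arrays.

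The genes named were all members, of each related list those past the threshold and up to 3 others with the smallest p, the 5 others closest to the members' mean profile (clones, predicted genes and genes under the array-wide median left out), and Pdgfra. Tek was named as the brightest endothelial marker. Members, lists, motifs and tests were chosen with earlier results of these data known. The motif search was added after the files were seen. Lists came from textbook knowledge, and the promoter table from RefSeq. The 16 alternatives were a replicate block, other normalisations, a filter on dim probe sets, other choices of probe set, other variance models and left-out arrays. Figures were drawn with matplotlib 3.10.9.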

Additional observations from a re-analysis of the deposited data

How the results depend on the processing

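The number of members past the threshold (5) was 5 on quantile normalisation, cyclic loess, equal array medians, a filter at the median probe set and the mean of all probe sets. It was 7 with an intensity trend and with array quality weights, and 4 without both CAF replicate 3 and NDF replicate 1 or without probe sets of suffix _s_at, _x_at or _a_at, which leaves Ier3 unmeasured. With 1 array left out it ranged from 0 to 5. With a replicate block it was 1, Nr4a1, and all genes past the threshold fell from 94 to 20. All genes past it numbered 155 with the intensity trend and 438 with the array quality weights. The labels name no pairing of the arrays, so same-numbered arrays were not taken as pairs. Their deviations correlated at -0.14, 0.14 and -0.04, which with 3 arrays a group cannot decide whether they were paired. The number of member probe sets past the threshold (4) was less stable: 0 with the replicate block and without both named arrays, 1 on quantile normalisation, on cyclic loess and without the suffixed probe sets, 7 with the filter, 10 with the trend or the weights, and 0 to 4 with 1 array left out. The members' median difference was 1.56 with the mean of all probe sets, which brings in the other probe sets of Egr3, Nr4a3 and Ier5, and 1.66 to 1.96 under the others. The members with every CAF array above every NDF array numbered 8 to 10, and 10 only where arrays were left out. Ier5 turned to -0.13 with that mean, the only member to change sign under any of the 16 alternatives. Adjusted p ranged over the alternatives from 0.00204 to 0.0674 for Btg2, 0.00674 to 0.125 for Nr4a1, 0.00253 to 0.167 for Egr2, 0.00496 to 0.161 for Ier3 and 0.00846 to 0.354 for Nr4a3. Of members that missed the threshold, Nr4a2 passed it under 3 alternatives, and Egr1 and Egr3 under 1 each. Among AP-1 genes 0 to 2, and among other early response genes 0 to 3, were higher at the threshold; the AP-1 count was also 0 with the replicate block. Precision is limited by the 3 arrays a group.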
